A study of Mus musculus with 18 samples.

Results

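Fragments of nuclear transfer RNAs (tRNAs) other than tRNA-Glu and tRNA-Gly were a small, uneven fraction of the small RNA of mouse sperm. They were chosen by annotation alone: the first name had to be a nuclear tRNA, and mitochondrial tRNAs, tRNA-Glu and tRNA-Gly were left out. This gave 821 of the 207217 distinct sequences of the 4 sperm libraries and 12845 reads, spread over 41 isoacceptors (tRNAs named by their amino acid and anticodon) with 20 amino acid labels, among which the initiator tRNA iMet and the selenocysteine tRNA SeC were listed separately. Fragments of 2 isoacceptors, His-GTG and Asp-GTC, supplied 50.7% to 62.1% of these reads in each library. No isoacceptor, isoacceptor of a given length or single sequence of the class differed between genotypes past the test's threshold in the 4 libraries.

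A tRNA folds into a cloverleaf in which the D loop comes first, the anticodon loop lies in the middle and the T loop lies close to the 3′ end, to which an enzyme adds the letters CCA after transcription. Nucleases cut tRNAs in these loops and leave fragments that can be stable. Mature sperm are known for fragments of tRNA-Glu and tRNA-Gly that run from the 5′ end to the anticodon, and part of this load is taken up during passage through the epididymis. Several base modifications of tRNAs are made by enzymes that carry iron-sulfur clusters, the cofactors that the mitochondrial protein ISCA2 helps to assemble.

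The series holds 18 mouse samples, of which the 4 sperm small RNA libraries are described here. The 6 oocyte and 8 blastocyst samples were not analysed here. There were 2 libraries labelled wild type (WT 1 and WT 2) and 2 labelled Isca2 -/- (KO 1 and KO 2). The embryo protocol given with every sample describes crosses of Isca2+/- parents. Strain, age, the way sperm were collected and any pooling of animals are not given in the labels, and nothing in them says that replicates came from separate animals. The p-values therefore measure the spread between these libraries, which may be technical.

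The libraries held 205993 (WT 1), 703036 (WT 2), 703133 (KO 1) and 746812 (KO 2) reads of 20 to 45 nucleotides (nt). Reads annotated as ribosomal RNA made up 68.2% of WT 2 and 30.4% to 35.3% of the other libraries, and WT 1 was the shallowest. Reads of the spermatogenic microRNAs mir-34b, mir-34c and mir-449a were 0 in every library, where a count of 0 allows up to 14.6 CPM (counts per 1000000 reads of the library) in WT 1 and 4.27, 4.27 and 4.02 CPM in WT 2, KO 1 and KO 2, so the sperm label could not be checked with them. Of 7 epididymal microRNAs 5 had a read, with 26, 94, 30 and 145 reads in WT 1, WT 2, KO 1 and KO 2, of which mir-10b gave 268 of 295. Of 7 blood microRNAs 1 had a read, 1 in all. The part that other cells play in the values below was not tested. In bulk RNA of this kind, fewer cells of a type and less RNA per cell cannot be told apart.

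The 8 sequences with the highest mean share of the class's reads are shown first, since they carry most of what follows. They are printed 5′ to 3′ in DNA letters as deposited. Capitals mark GGT where it lies within the first 7 bases, letters found in the D loop of many tRNAs, and GTTCNA, the core of the T loop.
His-GTG, 20 nt: gtGGTtagtactctgcgttg
His-GTG, 21 nt: gtGGTtagtactctgcgttgt
His-GTG, 25 nt: GGTtagtactctgcgttgtggccgc
Asp-GTC, 21 nt: tGGTgagtatccccgcctgtc
Asp-GTC, 22 nt: GTTCGAttccccgacggggagc
Asp-GTC, 23 nt: GTTCGAttccccgacggggagcc
Lys-CTT, 20 nt: tcGGTagagcatgggactct
iMet-CAT, 41 nt: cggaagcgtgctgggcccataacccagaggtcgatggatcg

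A further set is shown because it leads other isoacceptors or families, has the smallest p-values of the genotype comparison or, for the 42-nt Leu-AAG sequence, shows a longer form that ends in CC.
His-GTG, 26 nt: tGGTtagtactctgcgttgtggccgc
Asp-GTC, 24 nt: gGGTTCGAttccccgacggggagc
Leu-AAG, 21 nt: agtctcttcgggggcgtgggt
Leu-AAG, 42 nt: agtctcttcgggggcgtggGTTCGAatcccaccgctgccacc
SeC-TCA, 22 nt: agtGGTctggggtgcaggcttc
Gln-CTG, 40 nt: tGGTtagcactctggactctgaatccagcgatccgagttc
Val-TAC, 30 nt: gtcctggGTTCGAgccccagtggaaccacc
Val-TAC, 39 nt: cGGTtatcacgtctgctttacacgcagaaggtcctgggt
Val-CAC, 21 nt: tGGTtatcacgttcgcctcac
Arg-CCG, 20 nt: tggataaggcatcagcctcc
Lys-TTT, 21 nt: tcGGTagagcatcagactttt

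The class held 854 reads in WT 1, 4399 in WT 2, 3899 in KO 1 and 3693 in KO 2. As a share of all reads this was 0.415% (95% Wilson interval 0.388% to 0.443%) in WT 1, 0.626% (0.608% to 0.644%) in WT 2, 0.555% (0.537% to 0.572%) in KO 1 and 0.495% (0.479% to 0.511%) in KO 2. The KO libraries lay between the WT libraries. The log2 ratio of the KO to the WT mean was 0.01, and the exact two-sided permutation test over libraries gave p = 1, where 2 libraries against 2 cannot go below 0.333. Without rRNA reads in the denominator the shares were 0.641%, 1.97%, 0.797% and 0.720% in the same order, and the log2 ratio was -0.78. For scale, tRNA-Glu gave 18885, 53388, 122742 and 90695 reads and tRNA-Gly 1925, 6171, 9676 and 12896 in WT 1, WT 2, KO 1 and KO 2. Intervals here and below cover counting error only, because reads carry no molecular identifiers and are not independent molecules.

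Most of the 821 sequences were rare. In all 4 libraries 113 of them had a read, 85 were in 3 libraries, 117 in 2 and 506 in 1, and 323 had a single read in all. The 113 shared sequences held 80.6% to 84.2% of the class's reads in each library. Of all reads 12823 were annotated with the tRNA name alone, 18 with a 3′ end tag and 4 with a 5′ end tag. Names of precursor tRNAs covered 116 reads, from 2 parents. Precursor Tyr-GTA had 9, 4, 33 and 46 reads in WT 1, WT 2, KO 1 and KO 2, and precursor Arg-TCT had 6, 6, 9 and 3. Both come from genes that have introns in many species.

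His-GTG and Asp-GTC, the tRNAs of histidine and aspartate, led the class. Reads of His-GTG numbered 232 in WT 1, 1790 in WT 2, 1314 in KO 1 and 781 in KO 2, which was 27.2% (24.3% to 30.2%), 40.7% (39.3% to 42.1%), 33.7% (32.2% to 35.2%) and 21.1% (19.9% to 22.5%) of the class. Asp-GTC had 201, 724, 997 and 1512 reads, or 23.5% (20.8% to 26.5%), 16.5% (15.4% to 17.6%), 25.6% (24.2% to 27.0%) and 40.9% (39.4% to 42.5%). The ratio of His-GTG to Asp-GTC reads was 1.15, 2.47, 1.32 and 0.517 in WT 1, WT 2, KO 1 and KO 2. It was highest in WT 2 and below 1 in KO 2 alone, and the WT 1 and KO 1 values lay side by side.

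The next 6 isoacceptors by mean share were iMet-CAT, which starts translation, Lys-CTT, Leu-AAG, Gln-CTG, SeC-TCA, which inserts selenocysteine, and Leu-TAG. iMet-CAT had 122, 345, 340 and 343 reads in WT 1, WT 2, KO 1 and KO 2, and Lys-CTT had 100, 403, 366 and 283. Leu-AAG had 37, 363, 271 and 204 reads. These 8 isoacceptors together held 90.7% to 91.5% of the class in every library. Gln-CTG made up 6.67% (5.19% to 8.55%) of WT 1 and 1.68% to 2.57% of the other libraries. SeC-TCA made up 0.937% (0.475% to 1.84%) of WT 1, on 8 reads, and 2.77% to 3.27% elsewhere. WT 1 thus differed from the 3 deeper libraries in both, beyond the Wilson intervals. A RefSeq annotation of the GRCm38.p6 build lists 16 genes for Asp-GTC on 6 chromosomes, 10 for His-GTG on 3, 24 for Lys-CTT on 12, 10 for Gln-CTG on 4 and 5 for Leu-AAG on 4. A fragment can match many of these copies, so no single locus is given.

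For the genotype comparison, annotated reads were summed per isoacceptor, or per annotation for all other RNAs, and tested with edgeR's quasi-likelihood test with Benjamini-Hochberg adjustment. Of the 122 features tested 0 passed an adjusted p of 0.05 (0%), and 5 had an unadjusted p under 0.05. Of the 41 isoacceptors 18 passed the count filter, 0 were called and 0 had an unadjusted p under 0.05. DESeq2 and limma-voom also called 0 of the 18. The other 23 isoacceptors held 279 reads in all and at most 46 each. Among the 18, the KO estimate was below WT in 15 and above it in 3. The median log2 fold change was -0.69, beside -0.07 over all features, and without WT 2 it was 0.05 beside 0.10. In CPM scaled by edgeR's TMM factors the 2 groups did not overlap in 7 of the 18, all with KO below WT. The share over all 122 features was not counted, so nothing about the class is read from this count. Scaled to all reads of each library alone, the groups of Val-TAC, Met-CAT and Arg-TCT overlapped. On totals of annotated reads, which this fit uses, iMet-CAT overlapped too. It had 345 of 641830 annotated reads in WT 2 and 340 of 599849 in KO 1. In 12 of the 18 the highest library was WT 2.

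CPM below are reads scaled to library size and TMM factor, given in the order WT 1, WT 2, KO 1 and KO 2. The smallest p with KO below WT belonged to Lys-TTT, at 33.4, 89.7, 28.1 and 10.01 CPM on 6, 38, 18 and 8 reads. Its log2 fold change was -1.72 ± 1.0 (SE, n = 2 libraries a group; edgeR adjusted p = 0.846). Gln-CTG stood at 317, 267, 153 and 77.6 CPM (log2 fold change -1.34 ± 0.93). Ser-GCT and Arg-TCT had log2 fold changes of -1.15 ± 0.81 and -1.28 ± 0.95 on 28 and 39 reads in all. In each of these 4 tRNAs both KO libraries lay below both WT libraries at this scaling, and the difference was smaller than 2 times its standard error. Scaled to all reads of each library alone, Arg-TCT overlapped, at 43.7, 14.2, 19.9 and 8.03 CPM. Lys-TTT was -0.79 without WT 2, and Arg-TCT was -0.44 without WT 1.

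Tyr-GTA, Asp-GTC and Val-CAC were the 3 isoacceptors with the KO estimate above WT. Tyr-GTA had 61.2, 16.5, 53.1 and 75.1 CPM (log2 fold change 0.79 ± 1.01), and 92 of its 112 reads carried the precursor name. Asp-GTC had 1118, 1709, 1556 and 1893 CPM (0.29 ± 0.71, adjusted p = 1 with edgeR). Val-CAC had 11.1, 40.1, 40.6 and 28.8 CPM (0.35 ± 0.93). The groups overlapped in all 3. With 1 library left out Tyr-GTA ran from 0.10 (without WT 2) to 2.23 (without WT 1) and Val-CAC from 0.0025 (without KO 1) to 1.64 (without WT 2).

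The abundant isoacceptors showed the same spread. His-GTG had 1290, 4225, 2051 and 978 CPM, a mean of 2757 ± 2075 (SD, n = 2) in WT and 1515 ± 759 in KO, and its log2 fold change was -0.87 ± 0.82 (edgeR adjusted p = 0.954). Without WT 2 it was 0.25, so that library set its direction. iMet-CAT had 678, 814, 531 and 429.4 CPM (-0.64 ± 0.78) and Lys-CTT 556, 951, 571 and 354 (-0.70 ± 0.82). Leu-AAG had 206, 857, 423 and 255 CPM (-0.65 ± 0.95) and Leu-TAG 100, 262, 116 and 72.6 (-0.96 ± 0.98). SeC-TCA had 44.5, 340, 169 and 150 CPM (-0.29 ± 1.09). Without WT 2 Leu-AAG was 0.74, SeC-TCA 1.86, Leu-TAG -0.068 and Lys-CTT -0.24. With library totals in place of TMM factors the median over all features moved from -0.07 to 0.37 and that of the 18 isoacceptors to -0.15.

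The His-GTG reads formed 1 family of overlapping sequences. Sequences that hold the middle 12 bases of the leading 20-nt fragment made up 99.2% of them, at 11 start and 22 end positions. The start of the leading fragment was used by 52.2% of the family, and the 3 positions after it by 14.0%, 17.9% and 12.4%. Ends were grouped too: 24.1% of the family ended where the 20-nt fragment ends, 13.9% 1 base later and 29.7% 7 bases later, at the end of the 25-nt sequence shown above.

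The 2 end groups of His-GTG differed between libraries. The 20-nt fragment had 52, 693, 174 and 62 reads in WT 1, WT 2, KO 1 and KO 2, or 229, 1434, 219 and 71.1 CPM in the fit of single sequences. Its log2 fold change was -2.52 ± 0.97 (edgeR adjusted p = 0.287), and it ran from -3.51 without KO 1 to -0.70 without WT 2. The 21-nt fragment, with 54, 235, 104 and 85 reads, had -1.67 ± 0.86 (adjusted p = 0.469 with edgeR). The 26-nt fragment, which ends 7 bases later, had 13, 32, 176 and 56 reads, or 57.2, 66.2, 222 and 64.2 CPM (1.20 ± 0.90), and was high in KO 1 alone, without which it was 0.044. The 25-nt fragment had 15, 122, 152 and 86 reads (-0.15 ± 0.88). The shorter pair was lower in both KO libraries than in both WT libraries, and the groups of the 25-nt and 26-nt fragments overlapped.

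Many of the short fragments ended inside the letters of their anticodon. This was noticed while reading the sequences and was then counted: a sequence was taken as stopping there if it ended in the first 1, 2 or 3 letters of its anticodon and, for 1 or 2, if a longer sequence of the same isoacceptor held it followed by the remaining letters. The letters were read on the strand given, and no tRNA reference was used, so this describes letters and not a mapped cut. Below, capitals mark the anticodon letters.
His-GTG, 20 nt: gtggttagtactctgcgttG
His-GTG, 21 nt: gtggttagtactctgcgttGT
His-GTG, 27 nt: gtggttagtactctgcgttGTGgccgc
Asp-GTC, 21 nt: tggtgagtatccccgcctGTC
Asp-GTC, 36 nt: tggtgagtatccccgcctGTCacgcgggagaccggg
Lys-CTT, 20 nt: tcggtagagcatgggactCT
Lys-CTT, 21 nt: tcggtagagcatgggactCTT
SeC-TCA, 22 nt: agtggtctggggtgcaggctTC
Arg-CCG, 20 nt: tggataaggcatcagcctCC
Val-CAC, 21 nt: tggttatcacgttcgcctCAC
Lys-TTT, 21 nt: tcggtagagcatcagactTTT

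By this count 64 sequences with 3901 reads, 30.4% of the class, stopped within or right after the anticodon. The share was 91.4% of Lys-TTT reads, 67.9% of SeC-TCA, 65.5% of Lys-CTT, 63.4% of Arg-CCG, 60.3% of Val-CAC, 42.1% of His-GTG and 25.9% of Asp-GTC. It was 1.22% of iMet-CAT and 0.604% of Gln-CTG, and Leu-AAG had 0 reads of this kind. With each of the 39 other anticodons of the class in place of the right one, the median share was 0% in each of these isoacceptors. The highest share with another anticodon came close to that with the right one in Asp-GTC (25.8%), His-GTG (40.4%) and SeC-TCA (66.1%), and passed it in iMet-CAT (60.0%), Leu-AAG (44.8%) and Gln-CTG (11.8%). It was lower in Lys-TTT (58.6%), Lys-CTT (44.4%), Val-CAC (27.9%) and Arg-CCG (14.1%). The count therefore marks where reads end and is not specific to the right anticodon in the first 6 of these tRNAs.

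The letter at which reads stopped differed between tRNAs. His-GTG stopped mostly after the first letter (982 reads) and the next one (562), and 188 reads stopped after the last. Lys-CTT had 499 reads after the middle letter and 255 after the last. SeC-TCA and Arg-CCG stopped after the middle letter, with 250 and 86 reads. Asp-GTC stopped after the last letter, with 814 reads against 75 after the middle one, and Val-CAC had all 41 there. In His-GTG and Asp-GTC the first anticodon letter is the guanosine that is replaced by queuosine, a modified base.

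Across libraries, the stopping reads made up 51.7% (45.3% to 58.1%) and 58.0% (55.7% to 60.3%) of His-GTG reads in WT 1 and WT 2, and 26.7% (24.4% to 29.2%) and 28.6% (25.5% to 31.8%) in KO 1 and KO 2. The genotypes did not overlap, with KO lower. With 2 libraries a group no permutation p under 0.333 is possible. Most of these reads in each library were the 20-nt and 21-nt fragments already given, so this difference is not independent of theirs. In Asp-GTC the shares were 24.9%, 36.5%, 26.0% and 20.9%, and in SeC-TCA 75.0%, 63.2%, 68.5% and 72.5%, with overlapping groups. In Lys-CTT they were 60.0% (50.2% to 69.1%), 61.0% (56.2% to 65.7%), 62.3% (57.2% to 67.1%) and 78.1% (72.9% to 82.5%). KO 2 alone stood apart beyond the intervals, though both KO shares lay above both WT shares. Both KO shares were also the higher ones in Arg-CCG (50%, 56.8%, 63.8% and 73.5%) and Val-CAC (50%, 47.1%, 61.5% and 69.6%). Their intervals overlapped, and WT 1 had only 3 and 1 stopping reads there. Groups without overlap thus went in both directions among these tRNAs.

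The Asp-GTC reads fell into families from separate parts of the tRNA. The family of the T loop sequence GTTCGAttccccgacggggagc held 70.4% of them, with 143, 424, 692 and 1158 reads in WT 1, WT 2, KO 1 and KO 2. In this family 67.6% of reads shared the start of that sequence, 54.4% ended with it and 38.5% ended 1 base further, with another C. The family of the 21-nt sequence that holds GGT had 45, 228, 235 and 292 reads, and 98.4% of them shared its start. Reads of the T loop family were thus 3.18, 1.86, 2.94 and 3.97 times those of this GGT family. Another family, led by a form of the 21-nt sequence that differs at 1 base, had 13, 70, 69 and 57 reads and is not in this ratio. The T loop family, by contrast, takes in the 1-base variant of its leading sequence, so the ratio compares unlike sets.

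The 22-nt and 23-nt T loop fragments of Asp-GTC were among the 4 sequences of smallest p with KO above WT. The 22-nt fragment had 45, 101, 271 and 440 reads, or 198, 209, 341 and 505 CPM, and a log2 fold change of 1.05 ± 0.84 (edgeR adjusted p = 0.677). The 23-nt fragment had 25, 41, 152 and 349 reads, or 110, 84.9, 191 and 400 CPM (1.61 ± 0.87, edgeR adjusted p = 0.487). Both KO libraries lay above both WT libraries for each. The 24-nt fragment that starts 2 bases earlier had 6, 12, 3 and 1 reads and a log2 fold change of -3.29 ± 1.26 (edgeR adjusted p = 0.287). The 21-nt fragment with GGT had 34, 166, 178 and 244 reads and a log2 fold change of 0.02 ± 0.84.

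Reads that ended in C and did not match the genome were common in the class, and no read ended in CCA. The files mark whether a sequence matches the genome, and 3084 reads of 181 sequences did not match. Of these 1733 ended in CC and 1320 in GC, and 3080 ended in C. Asp-GTC held 2247 of them (72.9%). Reads of the whole class that ended in CCA, the tail of a mature tRNA, numbered 0. Reads ending in A made up 0.114% to 0.585% of the class, beside 1.80% to 5.55% of all other reads of the same libraries. With A ends this scarce, the count of 0 does not show whether the parent tRNAs carried the tail. Reads without a genome match made up 22.8% (20.1% to 25.8%) of the class in WT 1, 15.96% (14.9% to 17.1%) in WT 2, 22.1% (20.9% to 23.5%) in KO 1 and 35.9% (34.3% to 37.4%) in KO 2. KO 2 was the highest, and KO 1 did not differ from WT 1 beyond the intervals.

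The motif GTTCNA, read on the strand given, was in 32.3% of the 821 sequences, beside 1.69% of all other sequences in the files. GGT within the first 7 bases was in 32.2%, beside 7.47%. The motifs overlap where a read begins with GGTTC, and 484 reads held both. GTTCNA was in 24.0% (21.3% to 27.0%) of the class's reads in WT 1, 17.4% (16.3% to 18.5%) in WT 2, 21.8% (20.5% to 23.1%) in KO 1 and 35.7% (34.2% to 37.3%) in KO 2. GGT near the start was in 54.3% (51.0% to 57.6%), 59.7% (58.2% to 61.1%), 50.6% (49.0% to 52.1%) and 42.9% (41.3% to 44.5%). The share with GGT was lower in both KO libraries than in both WT libraries, though the intervals of WT 1 and KO 1 overlapped. GTTCNA was highest in KO 2 and lowest in WT 2. The 22-nt and 23-nt Asp-GTC T loop fragments hold GTTCNA and did not match the genome. The GTTCNA share, the share without a genome match and the Asp-GTC T loop reads are thus not independent of each other. A higher share of these reads also lowers the share with GGT near the start.

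Some pairs of sequences differed at 1 base, and their ratio was compared because both members share length and library. Positions count from 1 at the 5′ end. The 22-nt Asp-GTC T loop fragment and its G5A form stood at 7.50, 3.88, 5.31 and 6.88 to 1 in WT 1, WT 2, KO 1 and KO 2, and the 23-nt pair with the same change at 5.00, 4.56, 8.44 and 10.9. The 21-nt Asp-GTC fragment and its G5T form stood at 3.40, 2.68, 2.87 and 4.69. The 20-nt Lys-CTT fragment and its G14A form stood at 4.83, 3, 4.68 and 11.4, and the 21-nt pair at 2.43, 2.81, 6.22 and 2.87. Groups overlapped in 3 of these 5 pairs. In the 23-nt Asp-GTC and the 21-nt Lys-CTT pairs both KO ratios lay above both WT ratios, on as few as 5 reads of the rarer form. The G5A, G5T and G14A forms are shown here.
Asp-GTC G5A, 22 nt: GTTCAAttccccgacggggagc
Asp-GTC G5T, 21 nt: tGGTtagtatccccgcctgtc
Lys-CTT G14A, 20 nt: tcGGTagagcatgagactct

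iMet-CAT and the leucine tRNAs gave other kinds of fragment. Of the main iMet-CAT family 88.0% of reads began at the start of the 41-nt sequence, a fragment that spans the CAT letters of the anticodon, and 37.6% ended with it and 21.3% 4 bases earlier. Reads of 36 to 42 nt made up 76.3% of iMet-CAT and 1.91% were of 20 to 23 nt. The 41-nt fragment had 50, 97, 109 and 92 reads (log2 fold change -0.79 ± 0.84). In Leu-AAG 82.9% of the reads of the family shared the start of the 21-nt fragment, 28.9% ended with it and 32.4% ran on 21 bases to the 42-nt sequence that ends in CC. Leu-TAG had fragments of the same 2 lengths.

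Val-TAC and Gln-CTG each held a T loop family and an internal family. In Val-TAC the family of the 30-nt fragment, which ends in CC, had 12, 85, 31 and 48 reads, and the internal family of the 39-nt sequence had 6, 7, 30 and 30. The 30-nt fragment stood at 35.2, 143, 25.2 and 26.4 CPM (-1.81 ± 0.93, adjusted p = 0.469 with edgeR), and -0.50 without WT 2. In Gln-CTG 79.2% of the main family shared the start of the 40-nt fragment and 65.0% its end, and that fragment had 31, 48, 48 and 8 reads, with KO 2 the lowest. In SeC-TCA 87.4% of the main family shared an end, at the middle anticodon letter, and 69.6% shared a start.

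The class was mostly short. Reads of 20 to 23 nt made up 46.0% (42.7% to 49.4%) of WT 1, 56.6% (55.1% to 58.1%) of WT 2, 50.2% (48.6% to 51.7%) of KO 1 and 60.4% (58.8% to 62.0%) of KO 2. The most common length was 21, 20, 21 and 22 nt in the same order. Reads of 30 to 34 nt, the length of the 5′ fragments that sperm are known for, numbered 61, 440, 305 and 238, and their share was highest in WT 2 (interval 9.15% to 10.9%) and 7.14%, 7.82% and 6.44% in WT 1, KO 1 and KO 2. Reads of 36 to 42 nt made up 24.8% (22.0% to 27.8%) of WT 1 and 14.0% to 16.9% of the others. KO 1 and KO 2 differed from each other in the shortest class by more than their counting intervals, so the genotypes could not be ordered.

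Split by isoacceptor and length, 725 features were tested with edgeR, 0 were called (0%) and 40 had an unadjusted p under 0.05. Of the 66 member features 0 were called and 1 had an unadjusted p under 0.05, with KO lower. The median log2 fold change was -0.42, beside 0.03 over all. It was 0.38 without WT 2 (0.22 over all) and 0.12 with library totals (0.37 over all), so its sign turned with that library and with the scaling. DESeq2 and limma-voom called 0 of the 66. Among features chosen after their values were seen, His-GTG of 20 nt had 58, 754, 202 and 98 reads (-2.17 ± 0.98), and Asp-GTC of 22 and 23 nt had 1.07 ± 0.49 and 1.33 ± 0.60 (edgeR adjusted p = 0.832 for each of the 3).

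At the level of single sequences 2877 were tested with edgeR and 12 were called, or 0.417%. Of the 821 members 74 passed the count filter, holding 10001 reads, and 0 were called. The smallest adjusted p was 0.287 (edgeR), 2 members had an unadjusted p under 0.05, both with KO lower, and DESeq2 and limma-voom called 0. The KO estimate was below WT in 54 and above in 20, with a median log2 fold change of -0.46 beside 0.09 over all sequences. Without WT 2 the member median was 0.26 (0.34 over all), and with library totals it was -0.05 (0.46 over all). With no count filter it was 0.16 for the 821 members (2.02 over all). The sign of the median thus turned with WT 2 and with the filter. Groups did not overlap in 17 members with KO lower and in 6 with KO higher. The share over all 2877 sequences was not counted, so nothing about the class is read from these counts. WT 2 was the highest library in 50 of the 74.

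The single-sequence result turned on the shallow WT library. Without WT 1, edgeR tested 3964 sequences and called 294, or 7.42%, lower in KO, with WT 2 as the only WT library and its spread taken from the KO pair. It called 269, or 6.79%, higher. Of 97 members tested 6 were then called lower and 0 higher. They were the His-GTG fragments of 20 nt (log2 fold change -3.22) and 21 nt (-2.01), the 30-nt Val-TAC fragment (-2.38), the 21-nt Lys-TTT fragment (-3.04), a 40-nt Lys-CTT fragment (-3.60) and a 24-nt Leu-AAG fragment (-3.28). The adjusted p of edgeR was 0.00140 for the 20-nt and 0.0408 for the 21-nt His-GTG fragment and between 0.0132 and 0.0347 for the others. Their share of 97 was near the 7.42% of all sequences. WT 2 is the library with 68.2% rRNA reads, and the part of that difference in these calls was not tested.

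tRNAs grouped by the enzymes that modify them are described by counts. The queuosine group (His-GTG, Asn-GTT, Tyr-GTA and Asp-GTC) had 445, 2541, 2359 and 2368 reads in WT 1, WT 2, KO 1 and KO 2, all 4 were tested and 0 called, and the median log2 fold change was -0.10. Asn-GTT had 1, 20, 14 and 15 reads. ELP3, an iron-sulfur enzyme, makes the first step in modifying the wobble uridine of several tRNAs, of which Lys-TTT, Gln-TTG and Arg-TCT were listed. The list leaves out tRNA-Glu and was not meant to be complete. These 3 had 16, 59, 42 and 20 reads, and 2 of 3 were tested and 0 called. The median of those 2 was -1.50, beside -0.69 over the 18 tested isoacceptors. Both are among the 4 of smallest p with KO below WT given above, and 24 of the 39 Arg-TCT reads carried the precursor name. Lys-TTT was -0.79 without WT 2 and Arg-TCT -0.44 without WT 1. Lys-TTT is also the substrate of CDKAL1, an iron-sulfur enzyme that adds a methylthio group. Its sister Lys-CTT had 16.7, 10.6, 20.3 and 35.4 times as many reads, with KO above WT in both KO libraries and 6 to 38 Lys-TTT reads behind each ratio.

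The remaining groups held few reads or 1 abundant member. Of the 2 tRNAs methylated by DNMT2 outside tRNA-Gly, Asp-GTC is described above and Val-AAC had 1, 1, 4 and 6 reads. Phe-GAA, which carries wybutosine made with the iron-sulfur enzyme TYW1, had 0, 5, 4 and 2 reads and was not tested. In WT 1 its count of 0 allows a share of up to 0.351% of the class's reads. Of the 4 tRNAs whose 5′ end begins with a run of guanines, 3 had a read: Cys-GCA with 14, Ala-CGC with 6 and Ala-TGC with 5 reads in all. All 4 of Ala-AGC, Ala-CGC, Ala-TGC and Cys-GCA were below the count filter.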

How the data were processed

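Small RNA reads of mouse sperm were deposited by the authors as 1 table per library, with each distinct sequence of 20 to 45 nt, its whole read count (unit counts, per the file headers), a genome match and an annotation. The tool that annotated them, its tRNA reference and the small RNA library protocol are not given in the sources used here. The submitters' processing notes name Trim Galore 0.4.5, STAR 2.6.1c, RSEM 1.3.1, DESeq2 1.42.1 and the mm10/GRCm38 build without roles. The members and lists were chosen with earlier results of these data known.

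Isoacceptor, length and reads came from the first name of each annotation; 101 reads had names of several tRNAs, and 6 sequences had differing isoacceptors between files, each row being kept as its file gave it. In edgeR 4.0.16 (R 4.3.3), filterByExpr by group, TMM factors, glmQLFTest with genotype as the only term and Benjamini-Hochberg adjustment over the whole table (threshold 0.05) were used in 3 fits: isoacceptor totals and isoacceptor by length (annotated reads), and single sequences (all reads). A feature passes this filter through reads in either group. The code was run on simulated counts with less spread between libraries than the real ones, so that run does not measure the power of the fits. Named were the 8 leading isoacceptors and sequences by mean share, those called, or the 4 of smallest p in each direction where none was called, and members of the modification groups. Alternatives were RLE factors, library totals, sizes without rRNA reads, no filter, DESeq2 1.42.0, limma-voom (limma 3.58.1), a replicate block, each library left out, genome-matching sequences, unambiguous names and other denominators; a crossed block was added after the data were seen. Intervals are 95% Wilson intervals. A family is the set of sequences of an isoacceptor that hold the middle 12 bases of its leading sequence.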

Additional observations from a re-analysis of the deposited data

How the results depend on the processing

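The counts of called members stayed at 0 for isoacceptor totals and for isoacceptor by length under every alternative run. For single sequences the count was 0 under each alternative except the fits without 1 library, where it ran from 0 to 6 (6 without WT 1). The labels do not say that a replicate number marks a shared animal or batch, so it was not taken as a pairing. With the replicate block 0 members were called in each of the 3 fits, and the correlation of same-numbered libraries' deviations was -0.26, -0.19 and -0.07. With the crossed replicate block, added after the data were seen, 0 members were called too. In the single-sequence table as a whole, 14 higher and 2 lower calls were made with the block, beside 10 and 2 without it.

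The share of the class had a log2 ratio of -0.78 without rRNA reads, and -0.25 to 0.34 when 1 library was left out. The alternatives were followed for 26 named estimates, all of uncalled members, and not for the other tested members. Among those 26, the estimates that changed sign were these. With library totals Leu-AAG was 0.015, SeC-TCA 0.47, Asn-GTT 0.23, the 20-nt Lys-CTT fragment 0.38 and the 25-nt His-GTG fragment 0.41. Without a filter the last pair were 0.39 and 0.30. With limma-voom SeC-TCA was 0.35 and the 25-nt His-GTG fragment 0.028. With the replicate block they were 0.30 and 0.044, and with the crossed block 0.28 and 0.067. With genome-matching sequences only Asp-GTC was -0.36 and its 21-nt fragment -0.10. That fragment was -0.059 with RLE factors, -0.059 with DESeq2 and -0.25 with sizes without rRNA reads. With 1 library left out the range was -1.58 to 0.25 for His-GTG, -1.15 to 0.74 for Leu-AAG, -0.82 to 1.86 for SeC-TCA, -0.94 to 1.85 for Asn-GTT, -0.36 to 0.70 for the 21-nt Asp-GTC fragment, -0.33 to 0.34 for the 20-nt Lys-CTT fragment and -0.72 to 1.09 for the 25-nt His-GTG fragment. Of the 9 sign changes among those, 6 came without WT 2. The cause was not tested. With 854 reads in WT 1, a single read was 4.85 CPM there and 1.34 CPM in the deepest library, KO 2, which limits what can be seen in the rarer isoacceptors.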
